A study of Mus musculus with 5 samples.

Results

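The genes described are the cytoplasmic ribosomal protein genes of the mouse lung. They were chosen by symbol alone (Rpl or Rps followed by a number, with Rplp0, Rplp1, Rplp2 and Rpsa, and without pseudogenes or the Rps6k kinases) and had to hold at least 50 UMIs, the unique transcript molecules counted, over all libraries. Of the 31053 genes listed, 83 had such a symbol and 80 passed, 48 of them named for the large subunit and 32 for the small subunit. The 3 that did not pass were Rpl10l with 0 UMIs, Rpl39l with 5 and Rpl3l with 17, all of them copies of a broadly expressed member. The 80 members lie on 19 chromosomes, with 14 on chromosome 7 and 7 each on chromosomes 9, 11 and 17.

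Single cells of adult mouse lung were profiled with droplet libraries read from the 5′ end of the transcript, after a sort for viable CD45- Ter119- cells. The study asked what type 2 alveolar epithelial cells (AT2 cells, the surfactant-producing progenitors of the alveolus) need β1 integrin for when the lung is injured with lipopolysaccharide (LPS) given into the trachea. The 5 libraries were LPS-treated β1 fl/fl mice at day 7, LPS-treated β1 AT2-KO mice at day 7, PBS-treated β1 AT2-KO mice at day 7, and LPS-treated β1 fl/fl and β1 AT2-KO mice at day 21, the day 21 suspensions being enriched for EPCAM+ epithelial cells. β1 AT2-KO mice carried SP-C rtTA, Tet-O-Cre and 2 floxed alleles of Itgb1, so that doxycycline switched on Cre in cells using the SP-C promoter. β1 fl/fl controls were littermates with the floxed alleles and without rtTA and Cre. All groups shared the floxed alleles and 4 weeks of doxycycline in young adulthood, and PBS or LPS was given at about 3 months of age.

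Each condition was a single library of pooled mice. The cells carried 1 of 3 hashtag antibodies per library, each taken here as 1 mouse, which the labels do not state, so that a hashtag could hold more than 1 animal. Library and condition cannot be told apart, and the p-values below measure only the spread between mice of a pool. A cell was kept if it had 700 genes or more and between 0.1 and 15% of its UMIs from mitochondrial genes, and 24790 of 29500 such cells fell into 3 gates that use no member gene. These were 1916 AT2 cells (Sftpc at 5% of UMIs or more, Epcam present), 21327 endothelial cells (at least 2 UMIs of Cdh5 and Pecam1) and 1547 mesenchymal cells (at least 2 UMIs of Col1a2), each without the marker UMIs of the other gates. Libraries held between 8360954 and 29128331 UMIs in cells that passed, with a median of 2219 to 5330 UMIs per cell. Between 15 and 102 cell barcodes were shared by any pair of libraries. The gates held the markers they were named for: the 10 AT2 markers summed to between 269127 and 317052 UMIs per 1000000 (CPM) per mouse in the AT2 gate, where the 9 endothelial markers summed to 32.8 to 183 CPM. The AT2 markers summed to 487 to 20112 CPM in endothelial cells, where free RNA and doublets were not told apart.

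Itgb1, the floxed gene, was read in AT2 cells as a check of the labels. It stood at 258, 235 and 305 CPM in the 3 β1 fl/fl mice at day 7 and at 214, 150 and 193 CPM in the 3 β1 AT2-KO mice given LPS. At day 21 it stood at 356, 319 and 372 CPM against 141, 178 and 146 CPM. The floxed gene was therefore lower in every LPS-treated β1 AT2-KO mouse than in any control of its day, by 0.63 on the log2 scale at day 7 (log2 fold change -0.63, SE 0.16, edgeR adjusted p = 0.0164) and by more at day 21 (-1.27, SE 0.13, adjusted p = 2.29e-10). The PBS library gave only 4, 2 and 9 AT2 cells from its 3 mice, with Itgb1 at 233, 89.6 and 91.5 CPM, so no comparison with PBS was made in AT2 cells, nor in mesenchymal cells (7, 2 and 3 cells with a single hashtag, of 103 in the library). Its mouse 1 resembled the β1 fl/fl mice in several genes named below, whether its genotype is as labelled was not tested, and the comparison of LPS with PBS is therefore also given without it. The genotypes also differed in sex at day 7, as Xist was read in the endothelial cells of all 3 β1 fl/fl mice and Y-linked genes in all 3 LPS-treated β1 AT2-KO mice, so sex and genotype cannot be told apart there. Sex also differed at day 21. Mice 2 and 3 of the β1 fl/fl library held Xist at 280 and 305 CPM with Y-linked genes at 1.93 and 0 CPM in sum, whereas mice 2 and 3 of the β1 AT2-KO library held Y-linked genes at 122.6 and 153.2 CPM with Xist at 28.4 and 23.9 CPM. Mouse 1 held both in each library, with Xist at 66.7 CPM and Y-linked genes at 112 CPM in β1 fl/fl, and 229 and 15.2 CPM in β1 AT2-KO. Whether these hashtags hold more than 1 animal, and the part of sex in the day 21 results, was not tested.

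A ribosome is built from a large and a small subunit, each a core of ribosomal RNA with many proteins that are mostly present in a single copy per particle, apart from the acidic stalk proteins Rplp1 and Rplp2. The proteins are needed in equal number, and their genes are among the most highly transcribed in any cell. Their mRNAs typically begin with a C followed by a run of C and T (a 5′ terminal oligopyrimidine or TOP start), through which growth signalling by mTORC1 and the RNA-binding protein Larp1 sets their translation and stability. AT2 cells secrete large amounts of surfactant protein and re-enter the cell cycle during alveolar repair, and both draw on ribosomes.

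The start sites of some members named below are shown because the libraries read this end of the transcript. Those of Rpl17, Rpl21 and Rps19, which are also named below, are not printed. Sequences are from RefSeq on GRCm38.p6 and run from 15 bases before the annotated start to the first 15 transcribed bases, with a TOP start in capitals where the annotated start carries it (a C followed by at least 4 C or T). Rpl35a has more than 1 annotated start, and the start with the TOP sequence is printed.
Rpl35a, chr16:33056467-33056496, plus strand: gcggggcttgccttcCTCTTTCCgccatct
Rps27, chr3:90213634-90213663, minus strand: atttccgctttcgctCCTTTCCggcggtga
Rps18, chr17:33955651-33955680, minus strand: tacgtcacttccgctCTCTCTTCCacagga
Rps2, chr17:24720048-24720077, plus strand: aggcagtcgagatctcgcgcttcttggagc
Rpl12, chr2:32961697-32961726, plus strand: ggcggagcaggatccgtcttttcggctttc
Rpl37a, chr1:72711245-72711274, plus strand: ttccgctcgccggtctaaaaccgcgcatgc
Rps25, chr9:44407699-44407728, plus strand: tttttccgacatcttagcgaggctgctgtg
Rps28, chr17:33824548-33824577, minus strand: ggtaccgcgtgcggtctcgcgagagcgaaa
Rpl22l1, chr3:28805493-28805522, plus strand: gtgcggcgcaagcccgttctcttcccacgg
A promoter window from 250 bases before to 50 after a start was at hand for 60 of the 80 members and for 27025 genes in all. A TOP start at the annotated position was found in 13 members (21.7%) and in 3.01% of all genes. Such a run within 15 bases of the start was found in 39 members (65.0%) and in 40.3% of all genes. CCGGAA, the core letters bound by ETS-family factors, was found on either strand in 56.7% of members and 16.7% of all genes. GGGCGG, a GC box, was found in 63.3% against 38.2%. AAGATGGC, the core of the YY1 site, was found in 10.0% against 3.19%. The letters of a TATA box (TATAAA) were found in 11.7% against 15.7%. The shares of members with a TOP start, the ETS core, the GC box and the YY1 core were thus above those of all genes, and the share with a TATA box was not. A match of letters is a description and does not show a bound factor. By these letters the Rps2 window holds the ETS core, the GC box and the TATA box and has a pyrimidine run near its start but not at it, whereas Rpl35a holds the YY1 core and the GC box.

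All 80 members were detected in all 3 cell types, and 79 exceeded a mean of 100 CPM in each. A molecule is counted once from its 5′ end, so CPM does not scale with transcript length and members can be set beside each other. This does not hold for members that share 5′ sequence with another listed gene, named under the processing below, whose counts are uncertain. Abundant small subunit genes, by the mean over mice, were Rps24 (1504, 1553 and 2188 CPM in AT2, endothelial and mesenchymal cells), Rps20 (1076, 1239 and 1811 CPM) and Rps3a1 (1349, 945 and 1467 CPM) and the X-linked Rps4x (898, 1031 and 1712 CPM). Abundant large subunit genes were Rpl13 (1323, 1262 and 2013 CPM), Rpl37 (1349, 1351 and 1721 CPM), Rpl21 (1905, 960 and 1495 CPM) and Rpl38 (1171, 1097 and 1336 CPM). The 10 highest genes held 24.9% of the family's UMIs in AT2 cells, 23.8% in endothelial cells and 24.3% in mesenchymal cells, and small subunit genes held 43.9%, 43.6% and 45.4%. The lowest member was Rpl7l1 (37.5, 70.2 and 38.7 CPM), a copy of Rpl7 known from ribosome assembly. The order of the genes was much the same between gates, with Spearman's rho across the 80 genes of 0.92 for AT2 and endothelial cells, 0.93 for AT2 and mesenchymal cells and 0.94 for endothelial and mesenchymal cells, as a description of sums that share libraries.

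Against the bulk of other genes, ribosomal protein genes were higher in AT2 cells than in endothelial cells of the same mice, while their share of all UMIs was similar at day 7. That share was 6.19% ± 0.527 in AT2 cells and 6.18% ± 0.425 in endothelial cells of β1 fl/fl mice, and 5.61% ± 0.446 and 5.75% ± 0.460 in LPS-treated β1 AT2-KO mice (SD, n = 3). The TMM factors of edgeR set a library against most of its genes, so that a few very abundant surfactant mRNAs weigh little. In a TMM fit that kept each mouse as a block (14 mice), 75 of 80 members were higher in AT2 cells and 0 were lower at an edgeR adjusted p under 0.05, with 18.6% of the 11876 genes tested higher. The members' median log2 fold change was 0.63, where that of all genes was -0.47. Rps19, the gene most often mutated in Diamond-Blackfan anaemia, differed most (log2 fold change 1.78, SE 0.11, adjusted p = 5.09e-26), and the controls at day 7 illustrate it: 1138, 988 and 914 CPM in AT2 cells against 456, 456 and 513 CPM in endothelial cells. The AT2 values of Rps19 lay above every endothelial value. Rpl21 (1.49, SE 0.09), Rps28 (1.41, SE 0.10), Rpl22l1 (1.16, SE 0.13), Rpl10 (1.10) and Rps3a1 (1.05, SE 0.09) came next. The 5 members not called were Rpl15 (-0.03), Rpl29 (0.06), Rpl31 (0.11), Rps27l (0.19) and Rpl7l1 (-0.42, adjusted p = 0.0747). With the plain total of UMIs as library size, an alternative chosen after the data were seen, the median was 0.13, with 34 members higher and 7 lower. Because AT2 cells spend a large share of their UMIs on surfactant mRNA, each member was also set against the family's own total. On that scale 10 members were higher and 16 lower in AT2 cells, with Rps19 (1.10), Rpl21 (0.82), Rps28 (0.74) and Rpl22l1 (0.49) still higher and Rpl7l1 (-1.10), Rpl15 (-0.70), Rpl29 (-0.62) and Rpl31 (-0.56) lower.

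**Figure D1:**
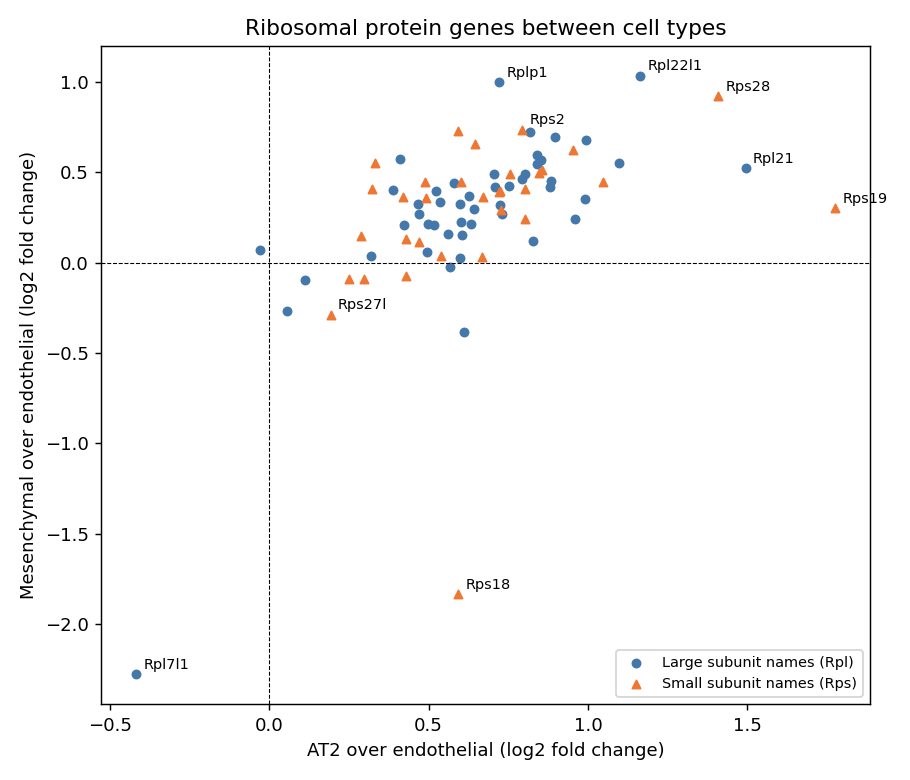
Each point is a ribosomal protein gene, with its log2 fold change in AT2 over endothelial cells on the x axis and in mesenchymal over endothelial cells on the y axis (edgeR, mouse as a block). Most genes sit above 0 on both axes, Rps19 and Rpl21 lie far to the right, and Rpl7l1 and Rps18 lie lowest on the y axis, both with no UMI in the 7 PBS mesenchymal cells.

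Mesenchymal cells also exceeded endothelial cells, in 44 members with 1 lower, against 9.76% of all genes higher and 23.8% lower. The members' median was 0.36 and that of all genes -0.56. Rpl22l1, a paralog of Rpl22 (log2 fold change 1.03, SE 0.25, adjusted p = 5.98e-04), Rplp1 of the acidic stalk (1.00, SE 0.11, adjusted p = 7.02e-13), Rps28 (0.92), Rps2 (0.74), Rpsa, also known as the laminin receptor precursor (0.73), and Rpl10a (0.72) rose most. The member called lower was Rpl7l1 (-2.28, SE 0.70), which had no UMI in the only PBS mouse that entered, with 7 mesenchymal cells. Without that library it stood at -0.40 (adjusted p = 0.0498) and 74 members were called, 73 of them higher. Leaving out the LPS-treated β1 AT2-KO library of day 7 left 20 called and leaving out the β1 fl/fl library of day 21 left 21, so the number called rested on single libraries while the members' median stayed above 0. Between AT2 and mesenchymal cells the direction depended on the scale. In the TMM fit 35 members were higher in AT2 cells and 0 lower, against 15.6% of all genes higher, but with the plain total as library size 2 were higher and 25 lower, and the median went from 0.33 to -0.27. The median member stood at 695 CPM in AT2 cells and 892 CPM in mesenchymal cells. The TMM direction also rested on the PBS library: without it 20 members were higher and 11 lower in AT2 cells, and the members' median went from 0.33 to 0.06. Without the β1 AT2-KO library of day 21, 23 were called. Rps19 (1.47, SE 0.16), Rpl27 (1.00, SE 0.16), Rpl21 (0.97, SE 0.12) and Rpl18 (0.72) were among the largest differences of that comparison. Rps18 was called with a larger value (2.43), which rested on the same 7 PBS cells, where it had no UMI, and was -0.10 without that library.

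The family as a whole took a smaller share of UMIs in β1 AT2-KO AT2 cells at day 21. The share was 5.01%, 4.80% and 4.43% in the 3 β1 AT2-KO mice (mean 4.75% ± 0.296, SD, n = 3) and 6.37%, 6.54% and 6.13% in the 3 β1 fl/fl mice (6.35% ± 0.209). The groups did not overlap and their means differed by -1.60 percentage points. At day 7 the share was 5.10%, 5.82% and 5.92% in β1 AT2-KO mice (5.61% ± 0.446) and 6.65%, 6.30% and 5.61% in β1 fl/fl mice (6.19% ± 0.527), and the groups overlapped. A share over the members was given no test.

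**Figure D2:**
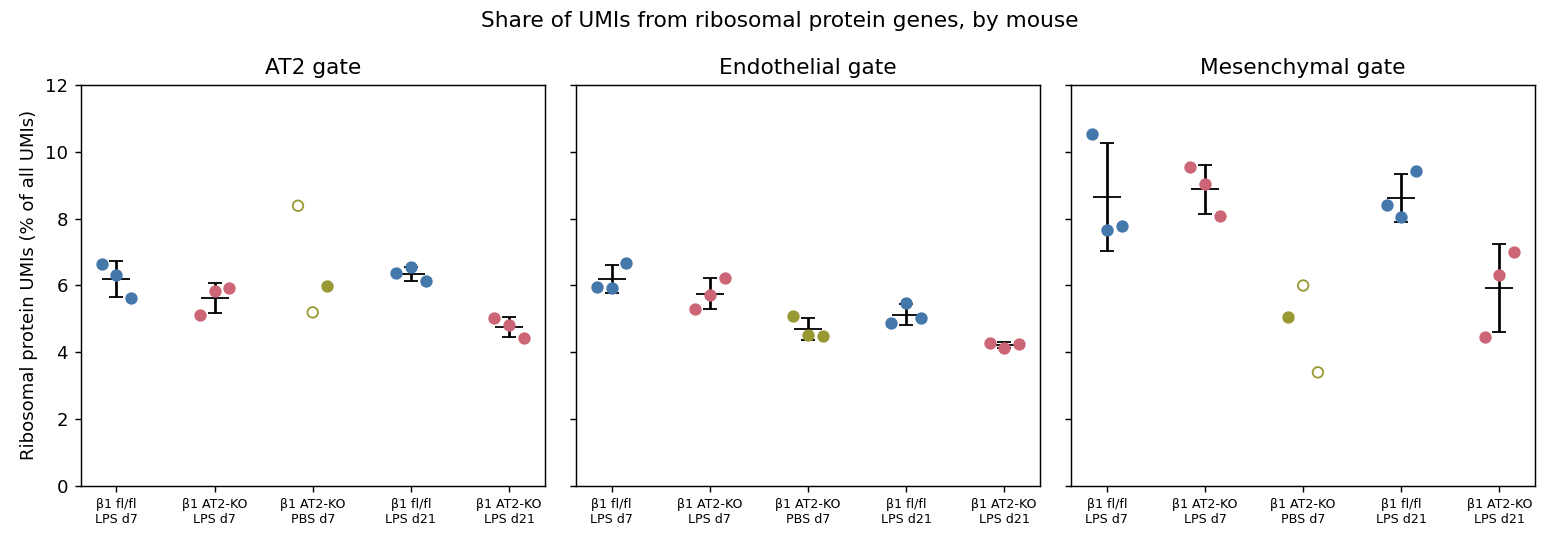
Share of all UMIs that came from the 80 ribosomal protein genes, in percent, in AT2, endothelial and mesenchymal cells, with a point per mouse, the mean and the SD over mice; open points are mice with fewer than 5 cells of the type. In AT2 cells the β1 AT2-KO mice of day 21 sit between 4.43% and 5.01%, below the β1 fl/fl mice of that day.

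Gene by gene, 64 of the 80 members were lower in AT2 cells of β1 AT2-KO mice at day 21 and 0 were higher (edgeR, adjusted p under 0.05 over 7846 genes), where 1.91% of all genes were lower. The 3 mice of each group did not overlap for 77 members, all lower, against 7.15% of all genes. The members' median log2 fold change was -0.50 with a range from -1.14 to -0.20, and the median of all genes was 0.02. Large and small subunit genes moved alike, with medians of -0.48 and -0.51 and with 38 of 48 and 26 of 32 called. Rps2, a small subunit protein near the mRNA entry channel, stood apart at 868, 1030 and 988 CPM in β1 fl/fl mice and 482, 459 and 453 CPM in β1 AT2-KO mice (-1.14, SE 0.12, adjusted p = 1.34e-09). Rpl35a, a large subunit gene mutated in some patients with Diamond-Blackfan anaemia, fell from 863, 812 and 732 CPM to 479, 475 and 417 CPM (-0.90, SE 0.14, adjusted p = 4.49e-05). Rpl17 stood at 417, 421 and 438 CPM against 268, 256 and 224 CPM (-0.86, SE 0.13, adjusted p = 1.50e-05). In all 3 genes every β1 AT2-KO mouse was below every β1 fl/fl mouse. Rpl12 (-0.77), Rpl21 (-0.73) and Rps25 (-0.69) followed, and Rpl21 stood at 2363, 2201 and 2107 CPM against 1530, 1441 and 1311 CPM.

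The stalk genes Rplp0 (-0.57, SE 0.13), Rplp1 (-0.47, SE 0.13) and Rplp2 (-0.46, SE 0.12), whose proteins call elongation factors to the ribosome, were among those called. So was Rps27a (-0.54), which encodes a fusion with ubiquitin. All 4 X-linked members were called, with Rpl36a at -0.58, Rpl10 and Rps4x at -0.48 and Rpl39 at -0.43, and the difference was of the size found for the family. Members not called included Rpl22l1 (-0.20, adjusted p = 0.534), Rpl41 (-0.28), Rpl3, which lines the peptidyl transferase centre (-0.32), Rpsa (-0.33), Rpl7l1 (-0.33) and Rps27l (-0.42, adjusted p = 0.136). Rpl22l1 stood at 214, 200 and 186 CPM in β1 fl/fl and 197, 167 and 188 CPM in β1 AT2-KO mice, which overlap, while its paralog Rpl22 stood at 535, 667 and 593 CPM against 478, 487 and 435 CPM (-0.45, adjusted p = 0.0432).

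**Figure D3:**
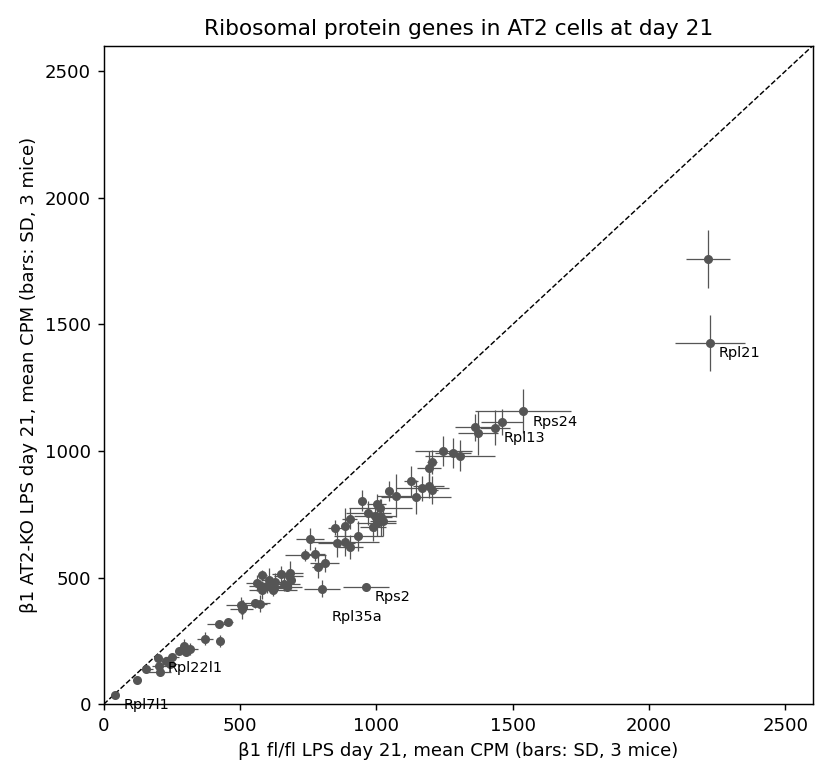
Mean CPM of each ribosomal protein gene in AT2 cells at day 21, β1 fl/fl on the x axis and β1 AT2-KO on the y axis, with SD bars over 3 mice and a dashed line of equal levels. The genes lie below the line along its whole length, and Rps2 and Rpl35a lie farther below it than genes of like level.

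The size of this difference moved with the depth of the cells. The median AT2 cell held 11251 UMIs in the β1 fl/fl library of day 21 and 8312 in the β1 AT2-KO library, and the family's share rose with UMIs per cell in both. With the cells split by UMIs into 3 equal bins, from lowest to highest, it was 3.64%, 6.09% and 7.68% in the β1 fl/fl library and 2.60%, 3.90% and 5.94% in the β1 AT2-KO library. Among AT2 cells of 7000 to 12000 UMIs, a window set after this was seen, the difference between the mouse means was -0.378 percentage points, the members' median log2 fold change was -0.13, and Rps2 alone was called (-0.88, adjusted p = 0.0164). The number called also depended on mice: it was 20 without mouse 3 and 42 without mouse 2 of the β1 AT2-KO library and 36 without mouse 2 of the β1 fl/fl library. With the plain total of UMIs as library size 41 members were called. Set against the family's own total, 3 members stayed lower, Rps2 (-0.63), Rpl35a (-0.39) and Rpl17 (-0.36). Summed dissociation stress genes such as Fos and Jun stood at 13984 to 15405 CPM in the β1 AT2-KO AT2 cells of day 21 and 10348 to 11195 CPM in the β1 fl/fl cells, and the summed immune list, which contains Cd74, at 10833 to 11314 CPM against 6703 to 8471 CPM. The part of these in the result was not tested.

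At day 7 the only member called in AT2 cells was Rps2, at 1059, 994 and 1043 CPM in β1 fl/fl and 543, 513 and 483 CPM in β1 AT2-KO mice (log2 fold change -1.09, SE 0.13, adjusted p = 4.38e-08), where 0.918% of all genes were lower. With Rps2, 25 members had an unadjusted p under 0.05, all of them lower, and the next was Rps25 (-0.50, SE 0.15, adjusted p = 0.0756). The share of all genes at an unadjusted p is not given, so the 25 cannot be set against one. The members' median was -0.21, and the mice of the 2 groups did not overlap for 13 members that were lower, against 5.06% of all genes, and for 1 that was higher, against 11.4% of all genes, Rpl22l1 (246, 154 and 229 CPM in β1 fl/fl, 267, 287 and 278 CPM in β1 AT2-KO mice). Sums of other marker lists differed between these groups without overlap. The 5 AT1 markers summed to 2005 to 2761 CPM in β1 AT2-KO and 1236 to 1590 CPM in β1 fl/fl mice. In the same order, the 9 mesenchymal markers summed to 101 to 151 CPM against 47.6 to 68.9 CPM. The 8 immune genes, Cd74 among them, summed to 9338 to 12730 CPM against 6860 to 7874 CPM, with 5 and 7 of the 8 at 0. The paper reports AT1 markers in LPS-treated β1-deficient AT2 cells themselves. Whether these sums came from other cells was not tested. The 3 club cell markers summed to 13604 CPM in mouse 2 of the β1 fl/fl library and to 419 and 425 CPM in its other mice, and without mouse 2 the members' median was -0.21 with 1 called. The part of these markers was not tested. Without mouse 3 of the β1 fl/fl library, which had 17 AT2 cells, 7 members were called, and 2 were called without mouse 2 of the β1 AT2-KO library. Among AT2 cells of 7000 to 12000 UMIs the difference of day 7 was larger, with a share difference of -1.25 percentage points against -0.577 over all cells and a members' median of -0.39, and both were larger in size than those of day 21 in the same window. Rpl22l1 (0.27) and Rpl7l1 (0.39), the highest values, had adjusted p values of 0.494 and 0.690.

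The change in the genotype difference from day 7 to day 21 was tested itself. In AT2 cells 2 members differed, both lower at day 21, against 0.204% of all genes: Rpl17 (-0.85, adjusted p = 0.0200) and Rpl35a (-0.85, adjusted p = 0.0325). At day 7 Rpl35a stood at 783, 636 and 486 CPM in β1 fl/fl and 564, 686 and 725 CPM in β1 AT2-KO mice, an overlap that was not seen at day 21. Both calls were lost when mouse 3 of either β1 AT2-KO library was left out, and in the depth window. In that window the members' median change between the days turned from -0.29 to 0.27, so its direction depended on the depth of the cells. For Rps2 the change between the days was -0.05 and was not called (adjusted p = 0.959). The day 21 libraries were sorted differently from those of day 7, which cannot be told apart from time.

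**Figure D4:**
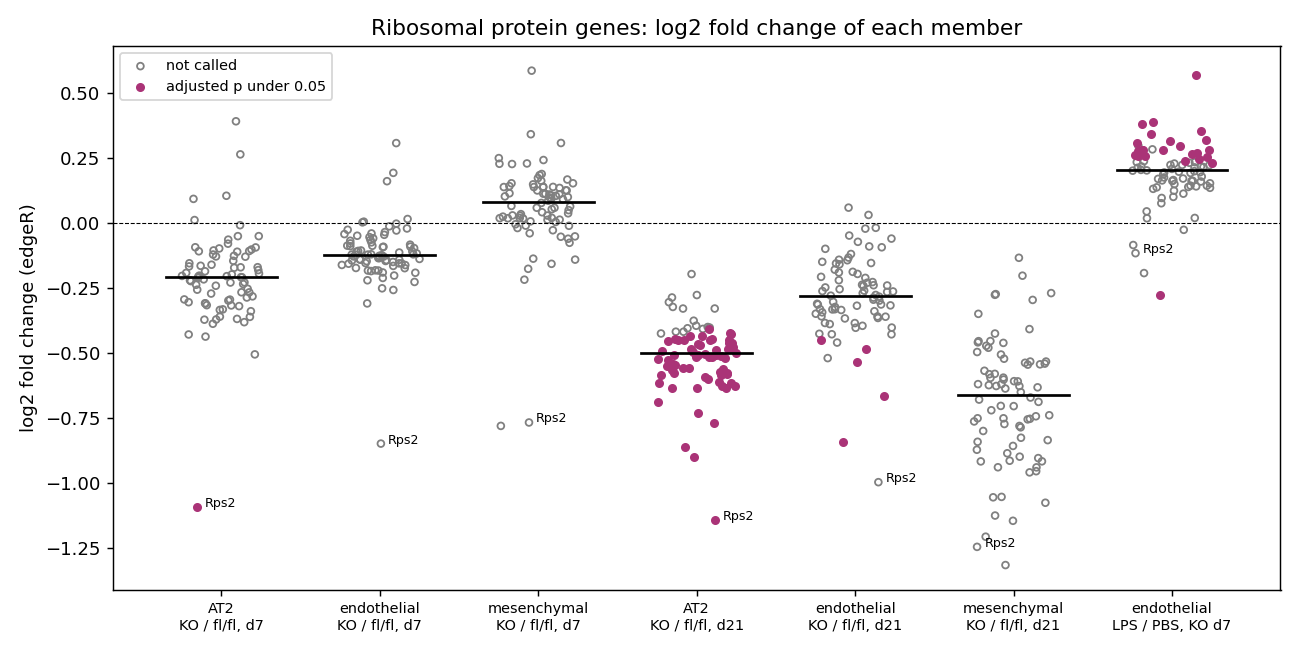
Log2 fold change (edgeR) of each of the 80 members, with a column for each cell type and comparison, filled points at an adjusted p under 0.05 and a bar at the members' median. The medians of day 21 lie below 0 in all 3 cell types, the median of LPS over PBS in endothelial cells lies above 0, and Rps2 is the lowest or near the lowest point wherever genotypes are compared.

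Rps2 (chr17:24718116-24721929 on GRCm38) had lower CPM in the LPS-treated β1 AT2-KO libraries in every gate, including those in which Cre was not directed. In endothelial cells it stood at 808, 822 and 1045 CPM in β1 fl/fl against 447, 446 and 613 CPM in LPS-treated β1 AT2-KO mice at day 7. At day 21 it stood at 759, 815 and 703 CPM against 384, 350 and 412 CPM. In mesenchymal cells the values were 1798, 1478 and 1882 CPM against 974, 922 and 1051 CPM at day 7, and 1823, 1708 and 1746 CPM against 553, 850 and 1073 CPM at day 21. The groups did not overlap in any of these comparisons, yet in the fits over all 5 libraries the adjusted p was 0.0792 and 0.112 in endothelial cells and 0.591 and 0.0570 in mesenchymal cells, for log2 fold changes of -0.85, -1.0, -0.77 and -1.24. The PBS library held values of both kinds: its mouse 1 stood at 728 CPM in endothelial cells and its mice 2 and 3 at 415 and 380 CPM. With the fit restricted to the compared groups, the endothelial value of day 7 was -0.84 (adjusted p = 0.0154).

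Abca3, the lipid transporter of the surfactant-storing lamellar body, lies 308 kb from Rps2 and split the mice in the same way with the opposite sign. In AT2 cells it stood at 661, 716 and 647 CPM in β1 fl/fl and 1409, 1419 and 1392 CPM in β1 AT2-KO mice at day 7 (log2 fold change 0.98), and at 783, 635 and 765 CPM against 1702, 1691 and 1689 CPM at day 21 (1.12). In the endothelial cells of the PBS library it stood at 41.5 CPM in mouse 1 and 141 and 162 CPM in mice 2 and 3, so that mouse 1 lay with the β1 fl/fl mice in both genes. Within 1 Mb of Rps2 on either side, 42 genes were tested in AT2 cells, where 0.879% of all genes were higher at day 7 and 1.43% at day 21. At day 7 Abca17 (0, 2 and 1 UMIs in β1 fl/fl mice, 32, 85 and 61 in β1 AT2-KO mice), Abca3 and Eci1 (1.35) were higher and Rps2 was lower. At day 21 Abca17 (13.2, 11.6 and 6.84 CPM against 116, 117 and 106 CPM), Abca3, Eci1 (1.55), Baiap3 (2.27) and Srrm2 (0.44) were higher, and Rps2 and Hagh (-0.79) were lower. In endothelial cells 1 of the 55 neighbours tested was higher at day 7, against 1.73% of all genes, and 0 were called at day 21, and in mesenchymal cells 0 of 24 were called at either day. These neighbours were examined after the value of Rps2 was seen, and what they share was not tested. Mouse 1 of the PBS library was also its only mouse with mainly Xist (203 CPM, against 10.3 and 7.03 CPM), so at day 7 the split also followed sex. At day 21 mouse 1 of the β1 AT2-KO library held mainly Xist (229 CPM), with Rps2 at 384 CPM in endothelial cells. Mouse 1 of the β1 fl/fl library of that day held more Y-linked CPM (112) than Xist (66.7), with Rps2 at 759 CPM. The part of sex was not tested. Whether the β1 AT2-KO mice carry a linked stretch of chromosome 17 was not tested either, so for Rps2 such a stretch and the deletion of Itgb1 cannot be told apart.

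**Figure D5:**
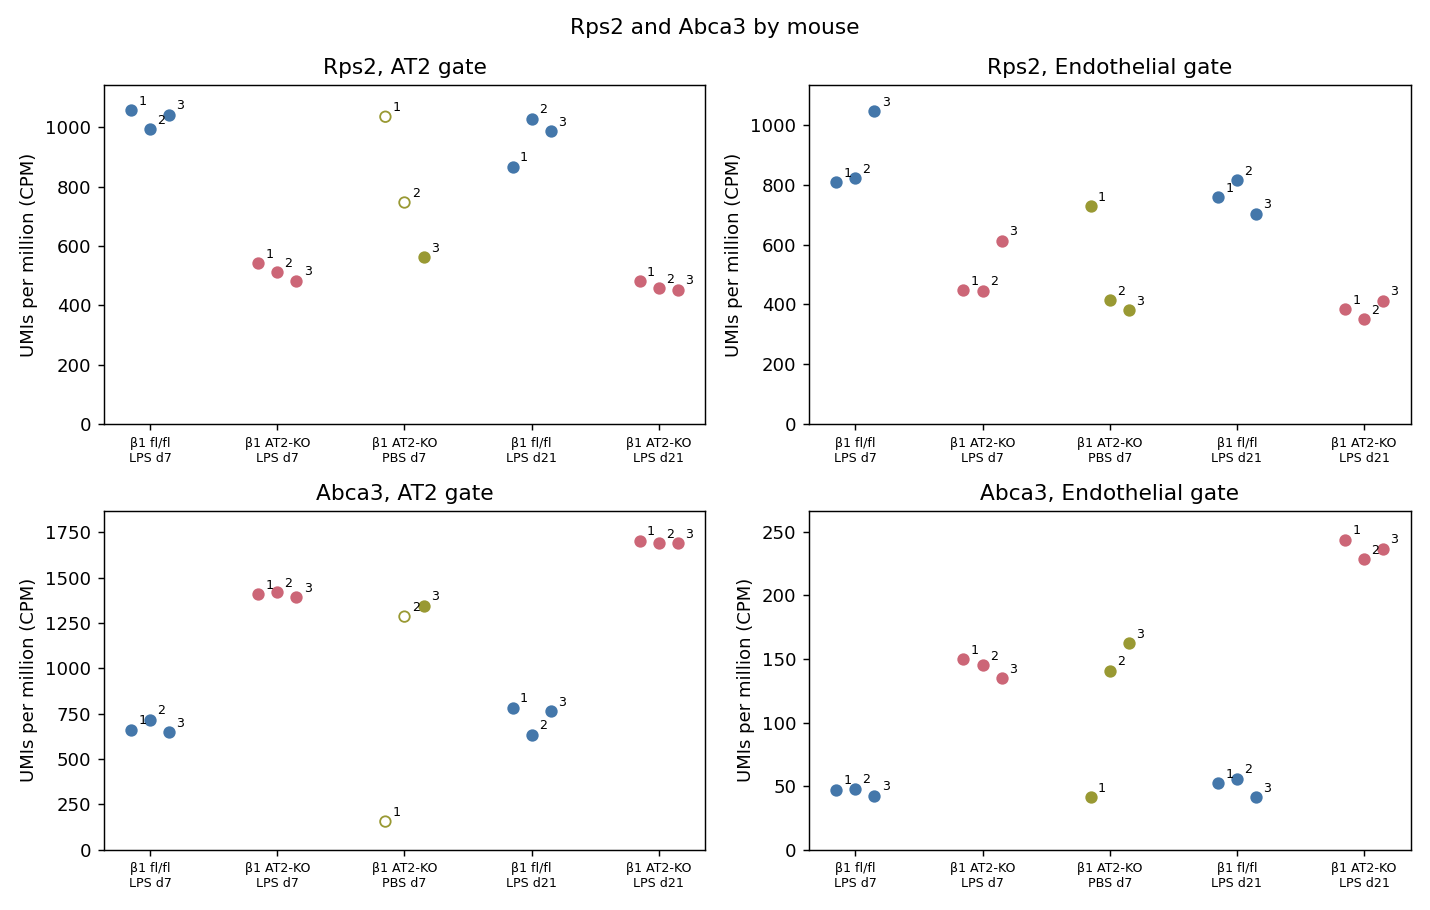
CPM of Rps2 (top) and Abca3 (bottom) in each mouse, numbered within its library, in AT2 (left) and endothelial cells (right); open points are mice with fewer than 5 cells of the type. In endothelial cells mouse 1 of the PBS library sits with the β1 fl/fl mice for both genes, at 728 CPM of Rps2 and 41.5 CPM of Abca3, apart from mice 2 and 3.

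In endothelial cells LPS was compared with PBS in β1 AT2-KO mice at day 7. The family's share was 5.30%, 5.72% and 6.22% in LPS-treated mice (5.75% ± 0.460, n = 3) and 5.07%, 4.52% and 4.48% in PBS-treated mice (4.69% ± 0.329), without overlap and with a difference of 1.06 percentage points. Of the members, 23 were higher after LPS and 1 was lower at an edgeR adjusted p under 0.05, where 14.3% of the 11757 genes tested were higher and 11.9% lower. Mice did not overlap for 67 members that were higher, against 29.6% of all genes. Rpl17 rose most (218, 206 and 192 CPM after PBS, 291, 325 and 365 CPM after LPS, log2 fold change 0.57, SE 0.09, adjusted p = 5.43e-05). Rpl12 (0.39), Rpl32 (0.38), Rpl39 (0.36), Rpl35a (0.34) and Rps23 (0.32) followed, and the family's median was 0.20. Rpl41, the smallest ribosomal protein, was lower (651, 622 and 602 CPM after PBS, 492, 561 and 603 CPM after LPS, -0.28, adjusted p = 0.0369).

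The number of members called after LPS was unsteady. Without mouse 1 of the PBS library the share difference was 1.25 percentage points, the members' median was 0.26, Rpl17 stood at 0.62 and Rpl12 at 0.41, and Rpl41 lost its call (-0.24, adjusted p = 0.0937). With the plain total as library size 61 members were called, all higher, and Rpl41 was not among them. The number was 41 without mouse 1 of the PBS library, all higher, 9 and 4 without its mice 2 and 3, 15 and 6 without mice 2 and 3 of the LPS library, 7 with only these 2 libraries in the fit and 4 among cells of 1500 to 4000 UMIs, where the members' median was 0.12. Rpl17 kept its call in that window (0.48, adjusted p = 0.000583) and against the family's own total (0.37). Summed dissociation stress genes stood at 5217 to 7749 CPM in the LPS library and 9025 to 10573 CPM in the PBS library, and mouse 1 of the PBS library was the only one of these 6 mice with mainly Xist in place of Y-linked genes. The markers of other cell types also moved in the endothelial gate: the 10 AT2 markers summed to 3313 to 5252 CPM in the LPS library against 487 to 946 CPM in the PBS library, and the 9 mesenchymal markers to 395 to 447 CPM against 96.0 to 137 CPM, while the 5 AT1 markers summed to 332 to 504 CPM against 762 to 864 CPM and the 9 endothelial markers to 13495 to 15171 CPM against 18083 to 19706 CPM. The part of any of these was not tested.

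Between genotypes at day 7, no difference passed the test in endothelial cells. The edgeR test called 0 of 80, where 0.825% of all genes were called lower. At an unadjusted p under 0.05 there were 10 members, 9 lower and 1 higher, and DESeq2 called 1. No share of all genes is given at an unadjusted p or by DESeq2, so these counts cannot be set against one. The median was -0.12, and 14 members were lower without overlap, against 9.14% of all genes, and 2 were higher, against 12.7%. Rpl17 pointed the other way (241, 256 and 285 CPM in β1 fl/fl, 291, 325 and 365 CPM in β1 AT2-KO mice, 0.31, adjusted p = 0.0694).

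At day 21 the endothelial share was 4.29%, 4.12% and 4.23% in β1 AT2-KO mice (4.21% ± 0.0857) and 4.87%, 5.46% and 5.03% in β1 fl/fl mice (5.12% ± 0.309), a difference of -0.906 percentage points without overlap. Of the members, 5 were lower, against 0.289% of all genes. At an unadjusted p under 0.05 there were 54, all lower, and the count was 25 by hashtag ratio. The share of all genes at an unadjusted p is not given, so these counts cannot be set against one. Rpl35a stood at 586, 658 and 664 CPM against 338, 347 and 380 CPM (-0.84, SE 0.10, adjusted p = 4.43e-05). Rps27, a small subunit gene with a zinc finger, stood at 770, 824 and 712 CPM against 469, 486 and 499 CPM (-0.66, SE 0.09, adjusted p = 5.61e-04). Rps29 (-0.53), Rpl41 (-0.48) and Rpl37a (-0.45) were the others, and all 5 genes did not overlap between the groups. The median was -0.28, and 56 members were lower without overlap, against 9% of all genes. Rpl5 (-0.02), Rps27l (0.03) and Rpl7l1 (0.06) had values near 0. Leaving out mouse 2 of the β1 fl/fl library left 2 calls, and leaving out its mouse 1 or mouse 2 or 3 of the β1 AT2-KO library left 3. In endothelial cells of 1500 to 4000 UMIs 5 members were called. Sftpc, a transcript of AT2 cells, stood at 14013 to 16238 CPM in these β1 AT2-KO endothelial cells and 2280 to 4532 CPM in the β1 fl/fl cells. In the same order, the 9 mesenchymal markers summed to 158 to 185 CPM against 266 to 350 CPM. The 4 red cell markers summed to 15.2 to 27.9 CPM against 0 to 1.29 CPM. The part of these was not tested. Summed dissociation stress genes stood at 7541 to 8594 CPM in these β1 AT2-KO cells and 9497 to 12246 CPM in the β1 fl/fl cells, the reverse of the order in AT2 cells, and their part was not tested either. The genotype difference was lower at day 21 than at day 7 for 3 members, against 0.638% of all genes, namely Rpl35a (-0.78, adjusted p = 0.00333), Rpl17 (-0.62, adjusted p = 0.0361) and Rps27 (-0.52, adjusted p = 0.0417). These calls were unsteady: 0 were made by hashtag ratio, 1 in the depth window and 1 to 3 without a mouse in turn, and 1 without mouse 1 or 2 of either β1 fl/fl library, mouse 2 of either β1 AT2-KO library or mouse 3 of the β1 AT2-KO library of day 21.

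In each LPS library the mean share over mice was larger in mesenchymal cells than in AT2 or endothelial cells. At day 7 the share was 9.54%, 9.02% and 8.09% in β1 AT2-KO mice (8.88% ± 0.735) and 10.5%, 7.65% and 7.76% in β1 fl/fl mice (8.64% ± 1.63), and the groups overlapped. The edgeR test called 0 members, where 0.0499% of all genes were called lower. At an unadjusted p under 0.05 there were 3 members, 2 lower and 1 higher, and DESeq2 called 1, both without a share of all genes to be set against. At day 21 the share was 4.45%, 6.32% and 7.01% from 15, 24 and 8 cells with a single hashtag, of 165 in the library (5.92% ± 1.33) against 8.39%, 8.04% and 9.41% from 26, 13 and 24 of 331 (8.62% ± 0.714), a difference of -2.69 percentage points without overlap. No member passed the edgeR test (0 of 80), where 0.0166% of all genes were called lower. At an unadjusted p under 0.05 there were 55 members, all lower, and DESeq2 called 8. The 55 became 1 by hashtag ratio, 9 in the depth window and 29 without mouse 1 of the β1 AT2-KO library. No share of all genes is given at an unadjusted p or by DESeq2, so these counts cannot be set against one. The median was -0.66, and 48 members were lower without overlap, against 6.96% of all genes. Rpl17 stood at 717, 606 and 705 CPM in β1 fl/fl and 208, 328 and 367 CPM in β1 AT2-KO mice (-1.31, SE 0.30, adjusted p = 0.0956), and Rpl22l1 at 396, 363 and 369 CPM against 208, 164 and 198 CPM (-1.14, adjusted p = 0.134). The AT2 markers summed to 8807 to 11326 CPM in these β1 AT2-KO cells and 1309 to 1532 CPM in the β1 fl/fl cells. In the same order, the 8 immune genes summed to 141 to 415 CPM against 26.9 to 96.9 CPM, with 7 of the 8 at 0 in each group. The 5 AT1 markers summed to 30.7 to 84.7 CPM against 134 to 206 CPM. The part of these markers was not tested. Among cells of 1500 to 4000 UMIs the share differed by -1.37 percentage points.

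Since Cre acted in AT2 cells, the genotype difference in AT2 cells was tested against that in the other cell types of the same mice. No member was called in any of these 4 tests (edgeR, mouse as a block), and 0 were called with DESeq2 size factors in the same fit. At day 21 the difference between AT2 and endothelial cells had a median of -0.12 over the members and 0.15 over all genes. At an unadjusted p under 0.05 there were 2 members, and at an adjusted p under 0.05, 0.135% of all genes were called lower. Against mesenchymal cells the medians were 0.35 and 0.26, with 14 members at an unadjusted p under 0.05, all of them higher. At an adjusted p under 0.05, 0.0842% of all genes were called higher and 0.0253% lower. With DESeq2 size factors the members' median against mesenchymal cells was 0.07, with 2 members at an unadjusted p under 0.05. With the plain total as library size it was 0.15, also with 2. Against endothelial cells these were -0.25 with 5 members and -0.13 with 3. At day 7 the medians were 0.03 against endothelial and -0.24 against mesenchymal cells, with 0 and 3 members at an unadjusted p under 0.05. At an adjusted p under 0.05, 0.0926% and 0.00842% of all genes were lower. With DESeq2 size factors the day 7 medians were -0.10 and -0.35, with 0 and 15 members at an unadjusted p under 0.05. For these 4 tests no share of all genes at an unadjusted p is given, so the unadjusted counts cannot be set against one. The floxed gene Itgb1 passed the same test at day 21 (-1.27 against endothelial cells, adjusted p = 5.96e-04, and -1.43 against mesenchymal cells, adjusted p = 0.00633). At day 21 the members' medians were thus below 0 in all 3 gates of the β1 AT2-KO library, with 64, 5 and 0 members called in AT2, endothelial and mesenchymal cells, and a difference particular to AT2 cells was not detected.

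Other genes of translation were read from fixed lists in the same fits. In AT2 cells at day 21, among ribosomal genes that the naming rule leaves out, Rack1, a scaffold on the small subunit, was lower (-0.55, adjusted p = 0.00549), while Fau (-0.30) and Rpl36al (-0.19) were not called. The share of all genes called lower in this comparison was 1.91%. Of 9 elongation genes 4 were lower: Tpt1 (-0.70), Eef1a1, which brings aminoacyl-tRNA to the ribosome (-0.52), Eef1g (-0.49) and Eef1b2 (-0.45). Of 36 initiation genes Eif4h alone was lower (-0.46), and the list's median was -0.14. Of 42 ribosome biogenesis genes and 20 regulators such as Myc and Larp1, 0 were called, with medians of 0.02 and 0.10, against 0.02 for all genes. Of 76 mitochondrial ribosomal protein genes 1 was lower, with a median of -0.20. Within these lists, the genes called lower at day 21 were mostly cytoplasmic ribosomal and elongation genes. In AT2 cells at day 7 Tpt1 (-0.49) was the only one of these genes called.

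In endothelial cells at day 21, where 0.289% of all genes were lower, Eef1a1 (-0.42), Tpt1 (-0.42) and the initiation helicase Eif4a1 (-0.56) were lower, and 0 of 50 biogenesis genes were called. After LPS, where 14.3% of all genes were higher and 11.9% lower, 3 of 9 elongation genes were higher, 1 of 36 initiation genes was higher and 4 lower, and 4 of 50 biogenesis genes were higher and 3 lower. Among regulators, 3 of 24 were higher and 4 lower. Myc, a driver of ribosomal gene transcription, was higher by 2.34 (edgeR adjusted p = 2.59e-05), Mycn by 1.46 and Larp1 by 0.32. Mxd4, a Myc antagonist, was 1 of the 4 that were lower (-1.02). In the fit without mouse 1 of the PBS library the 3 regulators called lower were Mxd4 (-0.88), Rps6kb2 (-0.67) and Max (-0.29), and 3 were higher. The initiation genes that were lower included Eif4ebp2 (-0.44), a repressor of cap-dependent initiation. In the fit without mouse 1 of the PBS library the 4 initiation genes called lower were Eif5 (-0.55), Eif1 (-0.54), Eif4ebp2 (-0.41) and Eif4a2 (-0.33). In that fit 2 initiation genes were higher, where 14.4% of all genes were higher and 11.2% lower. The biogenesis genes went both ways: Tsr1 (0.91), Npm1 (0.42), Nmd3 (0.39) and Ncl (0.31) rose, and Polr1a (-0.74), Rrp9 (-0.53) and Sbds (-0.50) fell. Of these lists, the biogenesis, initiation and regulator counts lay near or below the shares of all genes. Without mouse 1 of the PBS library Myc stood at 2.20 (adjusted p = 0.000191), 3 biogenesis genes were higher and 3 lower, and 2 elongation genes were higher. In that fit Nmd3 (0.36, edgeR adjusted p = 0.0762) and Polr1a (-0.77, adjusted p = 0.0635) lost their calls, and Ddx18 (-0.31, adjusted p = 0.0352) gained one. With all 3 PBS mice 4 of 78 mitochondrial ribosomal protein genes were higher and 0 lower.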

How the data were processed

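Droplet libraries of sorted lung cells were analysed as deposited. The authors counted UMIs with Cell Ranger 3.1 on mm10, for genes and for the hashtag antibodies, and the deposited counts are raw. Correction for free RNA, the quality filter and doublet removal described in the methods are not part of these counts, and no doublet caller was run here. The submitters' processing notes also name Seurat 4.1.0.

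Members and lists were chosen with earlier results of these data known. A cell carried a hashtag at 4 times its background or more, and only cells with a single hashtag (50.3 to 78.7% of a library) entered values per mouse. Cells with more than 1 hashtag (4.91 to 14.1%) were left out. UMI counts were summed per hashtag, taken as a mouse, and cell type, where a mouse needed at least 5 cells, and tested with edgeR 4.0.16 in R 4.3.3 (TMM, quasi-likelihood, filterByExpr, Benjamini-Hochberg over all genes tested, threshold 0.05), with all 5 libraries in a fit of 13 AT2, 15 endothelial or 13 mesenchymal mice. Cell types were compared, and genotype differences set against each other between cell types, in a fit with the mouse as a block (14 mice, 40 sums). The pairing is of cells with the same hashtag, which could hold more than 1 animal. CPM is UMIs per 1000000 of all UMIs of the sum. A log2 fold change is the edgeR estimate.

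Counting error alone limits low members: Rpl7l1 and mesenchymal sums of few cells are the least precise. Genes were named by rule: the highest 5 of each subunit, paralogs and copies named with an l, X-linked members, the stalk genes, Rpsa and Rps27a, the 6 largest changes each way among those called, and Itgb1. Some genes that meet this rule are not reported here. Other genes named were chosen after their values were seen. The scripts were tested on simulated data. Alternatives were DESeq2 1.42.0, DESeq2 size factors, no filter, abundant genes left out, the members' total or the plain total as library size, only the groups compared, other hashtag rules, other gates, at least 1200 genes or 20 cells, cells without the top 5% by UMIs, a depth window and leaving out each mouse or library. Gene positions are from GENCODE on GRCm38. For 9 members (Rpl9, Rpl10, Rpl11, Rpl13a, Rpl29, Rplp1, Rps12, Rps18 and Rps27) the first 150 bases share a stretch of 90 bases with another listed gene, so their reads can be split, and their counts are uncertain.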

Additional observations from a re-analysis of the deposited data

Results flagged for a closer look

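The genotype difference changed between day 7 and day 21, by a test of the change itself, for 5 pairs of gene and cell type. In AT2 cells these were Rpl17 (-0.85 on the log2 scale) and Rpl35a (-0.85). In endothelial cells they were Rpl35a (-0.78), Rpl17 (-0.62) and Rps27 (-0.52). In the depth window only Rpl35a in endothelial cells kept its call (-0.83, edgeR adjusted p = 0.00296), and the other pairs lost theirs. Against the family's own total none of the 5 passed (adjusted p = 0.0617 for Rpl35a in endothelial cells, 0.187 for Rpl35a in AT2 cells). Sex, sort and library differ between the days and cannot be told apart from time. Groups of 3 mice are too small for the search for single outlying mice, which was not run.

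UMIs were also assigned to copies that the naming rule leaves out, a signal outside the main measurement. Rpl9-ps6 held 113671 UMIs over all libraries, Rpl10-ps3 held 73743, Rps12-ps3 held 2201, Rps27rt held 573 and Rpl27-ps3 held 327. Of the members, Rpl9 shares 5′ sequence with Rpl9-ps6, Rpl10 with Rpl10-ps3, Rps12 with Rps12-ps3 and Rps27 with Rps27rt, so the split of counts between parent and copy is uncertain.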

How the results depend on the processing

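Of the counts of calls and share differences under the alternatives, 277 stayed within 1.5 times or the replicate spread, 87 moved further and 6 share differences reversed, all 6 of them mesenchymal at day 7. A count does not show direction, and the members' median turned in AT2 over mesenchymal cells with the plain total as library size (0.33 to -0.27) and in the AT2 day difference in the depth window (-0.29 to 0.27), among others. Of the values of single named members, 584 kept their call, 109 lost it and 1 reversed, Rps18 in AT2 over mesenchymal cells (-0.10 to 3.13 without each library in turn, the lowest without the PBS library). With the members' total as library size, 3 members were called in AT2 cells at day 21, 0 in the AT2 day difference, 2, 3 and 2 in endothelial cells (day 7, LPS, day 21), 0 in the endothelial day difference, and 26, 23 and 12 between cell types (AT2 over endothelial, mesenchymal over endothelial, AT2 over mesenchymal). By its construction this scale removes what the family shares. With the plain total as library size, chosen after seeing the data, 41 were called in AT2 cells at day 21, 61 in endothelial cells after LPS and 41 in AT2 over endothelial cells (34 higher, 7 lower), and AT2 over mesenchymal cells turned direction (2 higher, 25 lower).

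By the DESeq2 Wald test the calls were 2 (AT2 day 7), 1, 41 and 19 (endothelial day 7, LPS, day 21) and 1 and 8 (mesenchymal day 7 and day 21). Without the filter they were 10 (endothelial day 21), 6 (mesenchymal day 21) and 1 (mesenchymal day difference). With only the groups compared they were 1, 7 and 8 in endothelial cells (day 7, LPS, day 21). With the hashtag at 8 times background the AT2 day difference had 0 and endothelial day 7 had 1, and by hashtag ratio the AT2 day difference had 1, endothelial LPS 5, endothelial day 21 had 2 and the endothelial day difference 0. With at least 1200 genes the endothelial calls were 13 (LPS), 8 (day 21) and 1 (day difference). Without the top 5% of cells by UMIs the calls were 2 (AT2 day 7), 0 (AT2 day difference) and 1 (mesenchymal day 21). With at least 20 cells per mouse they were 8 (AT2 day 7) and 1 (AT2 day difference). In the depth window they were 1 (AT2 day 21), 0 (AT2 day difference), 1, 4 and 1 (endothelial day 7, LPS, day difference). Between AT2 and mesenchymal cells, 19 were called with DESeq2 size factors and 54 with abundant genes left out. The cause of these was not tested, and the shares of all genes called under these alternatives are not given.

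The share differences moved to -1.25 (AT2 day 7) and -0.378 (AT2 day 21) percentage points in the depth window. With abundant genes out of the denominator they were -1.03 (AT2 day 7) and -2.71 (AT2 day 21). In endothelial cells of day 7 the difference of -0.436 moved to -0.186 as a mean over cells and -0.185 in the depth window. In endothelial cells of day 21 it was -0.660 by hashtag ratio. In mesenchymal cells of day 21 the share difference was -1.57 by hashtag ratio and -1.37 in the depth window. The mesenchymal difference of day 7 was 1.53 with the hashtag at 8 times background and turned to -0.143 as a mean over cells, -1.14 in the depth window and -0.230 over all cells. Without a mouse it turned to -0.0904 (β1 AT2-KO mouse 1), -0.262 (β1 fl/fl mouse 2) and -0.203 (β1 fl/fl mouse 3).

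Leaving out each mouse in turn gave 1 to 7 calls in AT2 cells at day 7, 20 to 61 at day 21 and 0 to 2 in the day difference. In endothelial cells it gave 0 to 1 at day 7, 4 to 41 after LPS, 2 to 6 at day 21 and 1 to 3 in the day difference, and in mesenchymal cells 0, 0 and 0 to 1. Leaving out each library gave 70 to 77 (AT2 over endothelial), 20 to 74 (mesenchymal over endothelial) and 23 to 49 (AT2 over mesenchymal). The share differences ranged from -0.864 to -0.321 and -1.73 to -1.44 in AT2 cells (day 7, day 21), -0.672 to -0.191, 0.822 to 1.28 and -1.03 to -0.733 in endothelial cells (day 7, LPS, day 21), and -0.262 to 1.18 and -3.23 to -1.95 in mesenchymal cells. Without the mouse as a block the calls were 76, 52 and 36 between cell types and 0 in each genotype difference between cell types, and the pairing changed no such count by over 1.5 times. No paired analysis was possible because the mice of different libraries share only a hashtag or number, for the comparisons of conditions. Depth limits the mesenchymal results, whose sums held 7 to 161 cells a mouse. The depth window was chosen after seeing the data.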
